A study of Mus musculus with 7 samples.

Results

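The genes described are the 5 fibroblast growth factor (FGF) ligands of the mouse tailbud, Fgf3, Fgf4, Fgf8, Fgf17 and Fgf18. They were taken by gene symbol from a deposited expression table of 25965 rows, in which each has 1 row, and all 5 were among the 13997 genes that passed the filter on low values. RNA-seq had been made from the posterior end of E9.5 mouse embryos, cut off about a somite's length behind the last somite that could be seen and snap frozen. The sample labels give 3 wild-type libraries (Smchd1 +/+) and 4 libraries homozygous for the MommeD1 allele of Smchd1, called null by the submitters; the series' design text names 3 null samples. Smchd1 encodes a non-canonical SMC protein that takes part in X inactivation and in the silencing of some clustered and imprinted genes. All libraries came from female embryos of the FVB/N strain, and all cells of a null embryo carry the allele. The tissue is called postsomitic mesoderm in the labels and presomitic mesoderm in the series title. The labels do not say whether a library is 1 embryo or several, so p-values here rest on the spread among libraries only, and that spread may be technical.

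FGF ligands are secreted proteins that bind FGF receptor tyrosine kinases together with heparan sulphate and switch on the RAS to ERK kinase cascade. In the tailbud, Fgf8 and Fgf4 are made at the posterior end, and their signal falls off towards the somites, so that cells of the presomitic mesoderm leave it as they come to lie further forward. High FGF signal keeps these cells immature, and retinoic acid from the somites opposes it. Fgf8, Fgf17 and Fgf18 form one sequence subfamily of the FGFs. Fgf3 and Fgf4 belong to other subfamilies.

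Fgf3 and Fgf4 are neighbours on the same strand of mouse chromosome 7, in the build mm10. By the positions of the deposited table, Fgf3 lies at chr7:144838083-144844436 and Fgf4 at chr7:144861386-144865243, with 16949 bp between them. GENCODE M21 starts Fgf4 earlier, at 144847367, so this gap is shorter there. Fgf15, an FGF ligand that is no tailbud member, starts 31288 bp past the end of Fgf4. Fgf8 lies on the minus strand at chr19:45736798-45742915, Fgf17 on the minus strand at chr14:70636205-70642268, and Fgf18 on the minus strand at chr11:33117430-33147400. In the deposited table the nearest gene before the start of each of Fgf8, Fgf17 and Fgf18 is a nucleoplasmin family gene. Npm3 lies 4818 bp before Fgf8, Npm2 5033 bp before Fgf17 and Npm1 4886 bp before Fgf18. No annotated gene of GENCODE M21 overlaps any of the 5 ligands. The annotation and strand setting used for counting are not given, so this does not settle whether reads were shared with a neighbour.

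**Figure D1:**
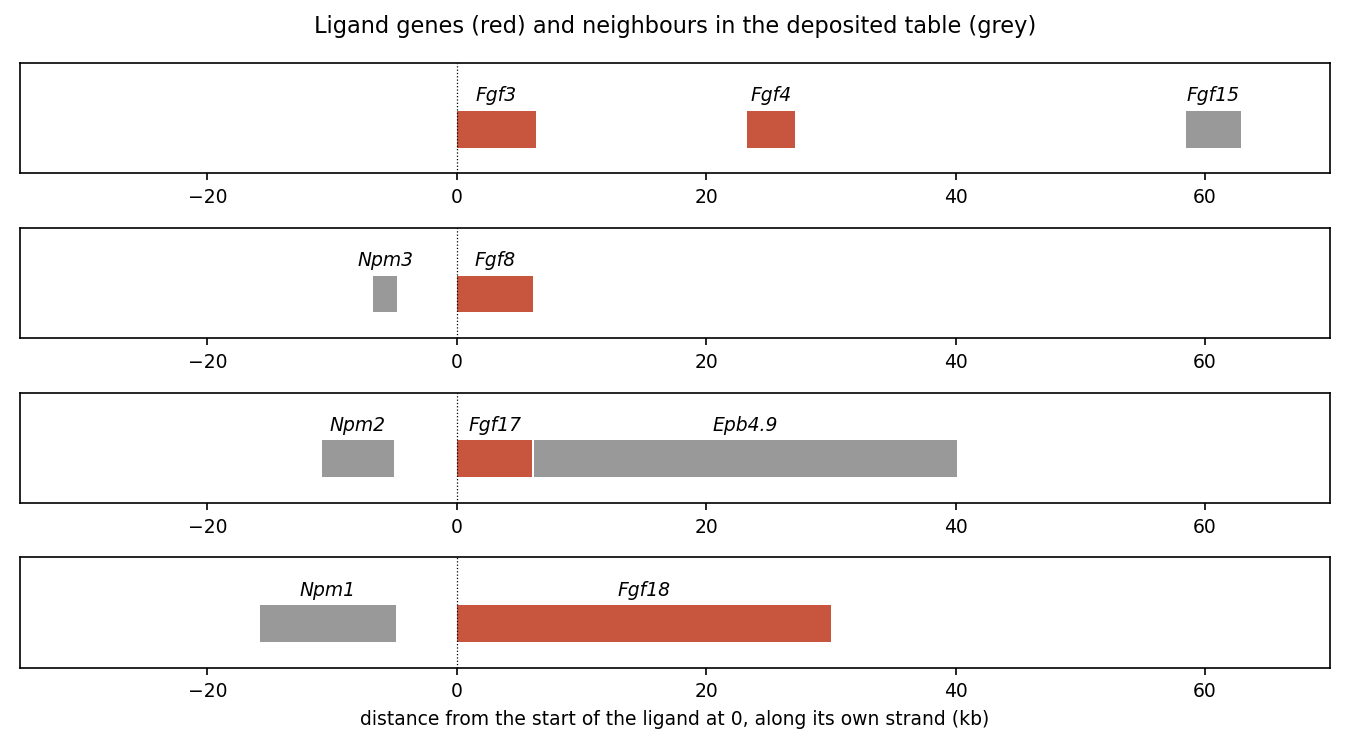
Position of the ligands (red) and of neighbours in the deposited table (grey), in kb from the start of the ligand placed at 0 and along that ligand's own strand. Fgf3 and Fgf4 share 1 locus with Fgf15, and a nucleoplasmin gene lies about the same distance before Fgf8, Fgf17 and Fgf18.

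Stretches before the RefSeq starts of Fgf3, Fgf4 and Fgf18 are shown, as no sequence was matched for Fgf8 and Fgf17. They are RefSeq sequences of GRCm38.p6, matched by symbol for 3 of the 5 ligands, written 5′ to 3′ on the strand of the gene, and they end at the base before the start for Fgf4 and Fgf18. For Fgf3, whose RefSeq start is at 144838612, the last 17 bases of the window are not printed because a GENCODE exon covers them. GENCODE M21 also places earlier starts for Fgf3 at 144838083 and for Fgf4 at 144847367, so these windows lie within its spans of both genes. Capitals mark the TCF/LEF core, the only searched motif that was met. The windows are chr7:144838362-144838594 for Fgf3 and chr7:144861136-144861385 for Fgf4, both on the plus strand, and chr11:33147401-33147650 on the minus strand for Fgf18.
Fgf3: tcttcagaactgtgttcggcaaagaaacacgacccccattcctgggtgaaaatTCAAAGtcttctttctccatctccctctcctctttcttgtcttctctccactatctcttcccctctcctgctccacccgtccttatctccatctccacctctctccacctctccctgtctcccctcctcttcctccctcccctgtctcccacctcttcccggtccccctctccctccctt
Fgf4: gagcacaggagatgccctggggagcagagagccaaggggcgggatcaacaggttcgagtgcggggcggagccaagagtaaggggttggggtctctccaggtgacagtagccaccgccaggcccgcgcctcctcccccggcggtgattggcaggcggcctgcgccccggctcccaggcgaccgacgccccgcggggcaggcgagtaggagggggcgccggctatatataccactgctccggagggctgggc
Fgf18: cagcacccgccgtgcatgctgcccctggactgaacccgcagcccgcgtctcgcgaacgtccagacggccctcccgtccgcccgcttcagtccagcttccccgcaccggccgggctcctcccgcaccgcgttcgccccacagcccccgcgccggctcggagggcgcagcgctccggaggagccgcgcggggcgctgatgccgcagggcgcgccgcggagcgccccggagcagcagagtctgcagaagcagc

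The 3 stretches differ in base composition. The Fgf3 stretch has a GC content of 54.9% and 4 CpG dinucleotides, and most of it is rich in pyrimidines. The Fgf4 stretch has a GC content of 71.2% with 21 CpG, and the Fgf18 stretch 77.2% with 37 CpG. Of 6 motifs searched on both strands of the full windows of 250 bases, the TCF/LEF core CTTTGA was met once, on the opposite strand of Fgf3 with its first base 197 bases before the RefSeq start, which is 180 bases before the end of the printed stretch. That core is present in 13.8% of 32851 mouse promoter windows of 250 bases. The T-box site TCACACC (3.33% of windows), the Cdx site TTTATNG (9.81%), the ETS site CCGGAAG (6.91%), TATAAA (12.4%) and the retinoic acid receptor repeat, AGGTCA followed after 5 bases by AGGTCA (0.00913%), were not met in these letters in any of the 3 windows. A match is a description of letters and not a site of binding.

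Depth was 19622596 to 23847381 reads in listed genes per library, and 3 reads, the limit that a count of 0 allows, correspond to between 0.044 and 0.0507 RPM (reads scaled to the library denominator), for counting error only. Smchd1 itself, the labelled target, had 1922 to 2372 reads per null library, below the 5572 to 6552 reads of each wild-type library, as the labels give it. Over all tested genes the median null minus wild-type difference on the deposited log2 scale was 0.16, and a smaller share of the reads of wild-type libraries B and C was in listed genes (28.8% and 31.2% for C and B, against 34.3% to 37.9% elsewhere). Each result is therefore also given after centring, in which every library was set to the same median of autosomal genes and the all-gene median became -0.03. Markers of the presomitic mesoderm were high in every library, with a summed centred level of 295 to 353 RPM over 8 genes. Libraries were lettered in file order, and the letter is only a name. Wild-type library B stands apart from the other libraries in the ligands, so each ligand's difference is also given without it.

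As RPM of listed reads divided by exon length in kb, a scale that allows levels of different genes to be compared (lengths are the union of GENCODE M21 exons), the 5 ligands spanned a wide range. Fgf17 was the highest, with a median of 56.9 over the 7 libraries (range 24.7 to 73.7). Fgf8, the best known of the tailbud ligands, followed with 40.8 (14.3 to 57.4), and Fgf3 with 20.6 (9.30 to 33.7). Fgf18 had 9.02 (3.92 to 20.9), and Fgf4 was far below the rest with 0.702 (0.0921 to 3.17). By genotype, the null libraries (mean ± SD, n = 4) had 63.0 ± 8.09 for Fgf17, 48.1 ± 9.48 for Fgf8, 27.6 ± 6.02 for Fgf3, 10.5 ± 5.51 for Fgf18 and 1.87 ± 1.13 for Fgf4. The wild-type libraries (n = 3) had 47.3 ± 21.3, 32.3 ± 16.6, 16.2 ± 6.03, 12.4 ± 7.49 and 0.464 ± 0.326 in the same order, with the larger SDs of Fgf8 and Fgf17 on the wild-type side.

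Within libraries the order held in most pairs of neighbours. Fgf17 was above Fgf8 in 7 of 7 libraries, by 1.18 to 1.73 times, and Fgf8 above Fgf3 in 7 of 7, by 1.40 to 2.29 times. Fgf18 was above Fgf4 in 7 of 7 libraries, by 2.59 to 227 times. Fgf3 was above Fgf18 in 6 of 7, the exception being wild-type library B, where the ratio was 0.444. Across libraries the ranges of Fgf17 and Fgf8, of Fgf8 and Fgf3 and of Fgf3 and Fgf18 overlapped, and those of Fgf18 and Fgf4 did not. Within libraries, Fgf3 and Fgf18 were the neighbours whose order was not the same in all 7. In wild-type library B Fgf18 made up 30.2% of the summed per-length level of the 5 ligands, against 2.97% to 10.3% in the other 6 libraries.

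**Figure D2:**
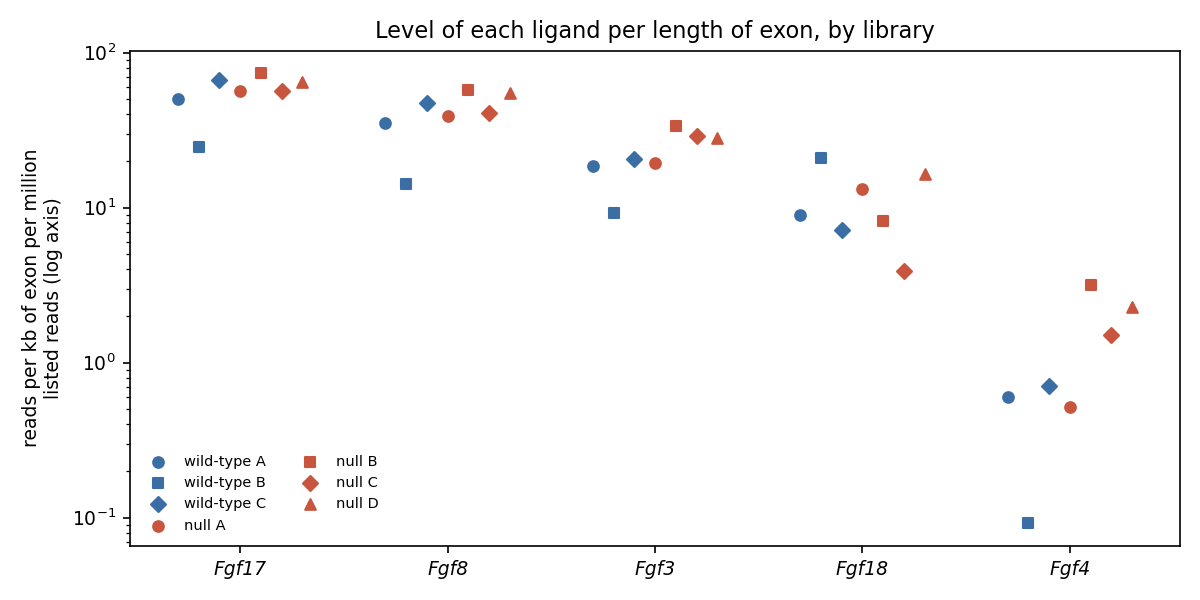
Level of each ligand in each library, in RPM of listed reads per kb of exon on a log axis, with 1 symbol per library, wild-type in blue and null in red. The order Fgf17, Fgf8, Fgf3, Fgf18, Fgf4 is seen in 6 of 7 libraries, and in wild-type B Fgf18 is above Fgf3 and Fgf8.

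Fgf3 is expressed in the tailbud and hindbrain of the embryo, and its loss shortens the tail. Its centred level was 14.8, 7.71 and 16.7 RPM in wild-type libraries A, B and C, and 15.4, 26.5, 23.0 and 22.1 RPM in null libraries A to D. Null B, C and D lay above every wild-type library, null A lay among them, and wild-type B was the lowest, so the groups overlapped. The null minus wild-type log2 difference was 0.97 (SE 0.27) as deposited and 0.78 (SE 0.28) centred, which is 1.97-fold and 1.72-fold. Neither passed, with adjusted p = 0.187 and 0.352 (limma over all tested genes, Benjamini-Hochberg), and the exact two-sided permutation p was 0.0857 on both scales. Without wild-type B the centred difference was 0.44.

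Fgf4, which acts with Fgf8 to keep the presomitic mesoderm unsegmented, was close to the lower end of what these libraries can measure. It had 45, 6 and 44 reads in wild-type A, B and C, and 38, 238, 107 and 175 reads in null A to D. That is a centred level of 0.657, 0.105 and 0.781 RPM in wild-type and of 0.566, 3.42, 1.64 and 2.48 RPM in null libraries. Null B, C and D lay above all wild-type libraries and null A below wild-type A and C. Fgf4 passed the filter on low values through those 3 null libraries alone, which is true of 0.929% of the genes tested, so its difference is read as a description of these libraries and no passing p of it is read as a call. The log2 difference was 2.34 (SE 0.72) as deposited and 2.15 (SE 0.82) centred, with limma adjusted p = 0.225 and 0.352 and an exact permutation p of 0.114 on both scales. In the fit of all 25965 rows with no filter the limma adjusted p was 0.523. Without wild-type B the difference was 1.37 as deposited (limma adjusted p = 0.020, where 0.736% of genes were called higher) and 1.23 centred, which did not pass.

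Fgf8, needed for the posterior end of the embryo to keep growing, had a centred level of 16.4, 6.89 and 22.1 RPM in wild-type A, B and C. In null A to D it was 18.2, 26.2, 18.7 and 25.1 RPM. Wild-type B was again the lowest library, with 394 reads against 1124 to 1824 in the others, and wild-type C lay among the null libraries. The log2 difference of 0.87 (SE 0.31) as deposited and 0.68 (SE 0.35) centred did not pass, with limma adjusted p = 0.272 and 0.374 and exact permutation p = 0.0571 and 0.143. Without wild-type B it was 0.34 and 0.19.

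Fgf17, a close relative of Fgf8 expressed in an overlapping domain, had a centred level of 29.1, 14.9 and 39.4 RPM in wild-type A, B and C and of 33.0, 42.0, 32.5 and 37.0 RPM in null A to D. The null libraries lay close together and wild-type C lay among them on this scale. As deposited, all null libraries were above all wild-type libraries, as were 7.02% of the genes tested, with an exact permutation p of 0.0286, the smallest that 35 splits allow. That separation was lost after centring, where 1 null library exceeded every wild-type library and the exact permutation p was 0.229. The log2 difference was 0.67 (SE 0.25) as deposited and 0.48 (SE 0.28) centred, with limma adjusted p = 0.291 and 0.409, and without wild-type B it was 0.23 and 0.08.

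Fgf18, of the same subfamily, is best known from bone, lung and the isthmus of the brain. It had a centred level of 3.68, 8.87 and 2.95 RPM in wild-type A, B and C and of 5.40, 3.30, 1.58 and 6.58 RPM in null A to D. Here wild-type B was the highest of the 7 libraries and null C the lowest, and the groups overlapped throughout. The log2 difference was -0.12 (SE 0.44) as deposited and -0.31 (SE 0.53) centred, with limma adjusted p = 0.871 and 0.769 and exact permutation p = 0.83 and 0.657. The sign was not stable, as the difference without wild-type B was 0.31 and 0.16.

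**Figure D3:**
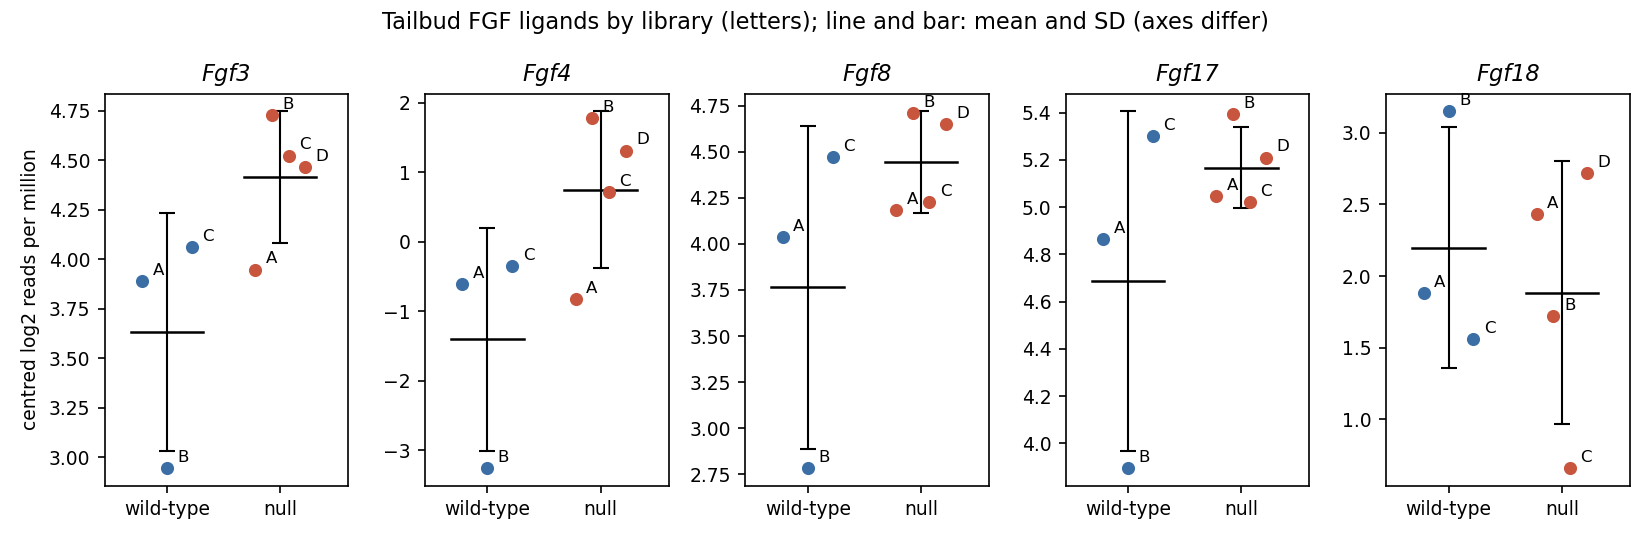
Centred log2 RPM of each ligand in the 3 wild-type and 4 null libraries, 1 lettered point per library, with group mean (line) and SD (bar), on axes that differ between ligands. Wild-type library B is lowest for Fgf3, Fgf4, Fgf8 and Fgf17 and highest for Fgf18.

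Across the 13997 genes tested with limma, 0 of the 5 ligands were called higher and 0 lower, on either scale. The background was 0.0357% of tested genes called higher and 0.00714% lower as deposited, and 0.05% and 0.00714% centred. At an unadjusted p under 0.05, 4 of the 5 were higher as deposited, where 13.9% of all tested genes were, and 2 (Fgf3 and Fgf4) were higher centred, where 7.29% were. Leaving aside Fgf4, which the filter let in through the null libraries, these counts are 3 and 1 of 4. The median difference of the 5 was 0.87 as deposited and 0.68 centred, beside 0.16 and -0.03 for all tested genes. Without wild-type B these medians of the 5 were 0.34 and 0.19. All these medians include Fgf4. With all libraries, the differences of the other 4 ran from -0.12 (Fgf18) to 0.97 (Fgf3) as deposited and from -0.31 to 0.78 centred. Some calls depend on 1 library as deposited: limma called Fgf3 without null A (difference 1.16, adjusted p = 0.034, 1.11% of genes called higher) and without wild-type A (1.23, adjusted p = 0.029, 30% of genes called higher). Fgf4 had 2.89 and 2.87 in these fits, with limma adjusted p = 0.034 and 0.043, not read as calls for the reason given. No ligand was called in any leave-one-out fit after centring.

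**Figure D4:**
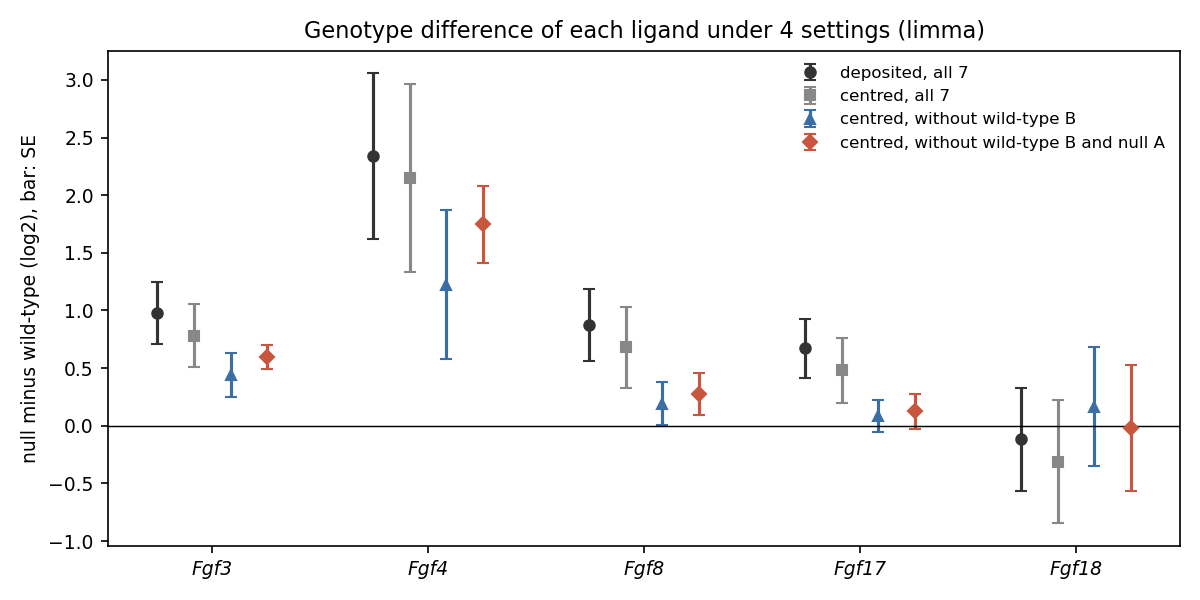
Null minus wild-type log2 difference of each ligand with its standard error (bars), as deposited, centred, centred without wild-type library B, and centred without wild-type B and null A. With all 7 libraries Fgf4 has the widest bars, and without wild-type B the centred differences of Fgf8 and Fgf17 are 0.19 and 0.08.

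Ratios between ligands within a library do not depend on the scale. The log2 ratio of Fgf17 to Fgf8 reads stayed between 0.56 and 1.11 in all 7 libraries, and that of Fgf3 to Fgf8 between -0.41 and 0.30. These ranges are narrower than that of the Fgf8 level itself, whose centred log2 value ran from 2.78 to 4.71. The ratio of Fgf4 to Fgf8 was -5.00, -2.94, -3.51 and -3.34 in null A to D and -4.64, -6.04 and -4.83 in wild-type A to C. Null B, C and D were above every wild-type library and null A was below wild-type A and C. The ratio of Fgf18 to Fgf8 was 0.36 in wild-type B, where Fgf18 reads outnumbered Fgf8 reads, and between -3.57 and -1.75 elsewhere.

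Wild-type B was the lowest of 7 libraries for 4 of the 5 ligands after centring, while it was lowest for 22.7% of the tested genes. Relative to the mean of wild-type A and C it was lower by a log2 difference of -1.03 for Fgf3, -2.77 for Fgf4, -1.47 for Fgf8 and -1.19 for Fgf17, and higher by 1.43 for Fgf18. Null A was the lowest null library for Fgf3, Fgf4 and Fgf8, as for 24.8% of the tested genes. It lay -0.62, -2.09 and -0.35 from the mean of null B, C and D in these genes, -0.16 in Fgf17 and 0.73 in Fgf18. The names of the columns of wild-type B and null A share the end number 18, whose meaning is not explained in the sources used here.

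Some cell type markers also set wild-type B apart from the other libraries. The summed centred level of 10 markers of the posterior tip, a list with T, Wnt3a, Cyp26a1 and late Hox genes, was 100.04 RPM in wild-type B, 202 to 239 in wild-type A and C, and 209 to 295 in the null libraries. None of the 10 was at or under 3 reads in every library, and 2 were in wild-type B. Wnt3a, a Wnt ligand of the tailbud, had a centred log2 value of 1.05 in wild-type B and 4.01 to 4.65 in the other 6 libraries. The somite markers (15 genes) summed to 162 RPM in wild-type B, to 70.7 to 98.8 in wild-type A and C, with 73.6 to 124.5 across null libraries, with Pax1 at or under 3 reads throughout. The neural tube markers (9 genes) summed to 125 RPM in wild-type B, 50.1 to 61.5 in wild-type A and C and 33.4 to 73.9 in the null libraries, with Dbx1 at or under 3 reads throughout. Presomitic markers differed less, with 298 RPM in wild-type B against 323 to 331 and 295 to 353. In bulk tissue, fewer cells of a type and less RNA per cell cannot be told apart, and the part of these markers in the ligand values was not tested.

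The summed level of hindgut markers did not overlap between the groups, which was not tested, and 0 of the 7 tested genes were called. After centring, every null library was above every wild-type library for 3 of the 7, as for 6.51% of all tested genes. The 7 genes present of 8 listed summed to 99.1 to 110 RPM in the null libraries, above the 83.9 to 94.1 of wild-type A and C and the 70.3 of wild-type B. Markers of the limb ridge and surface ectoderm, an epithelium that makes Fgf8 and Fgf4 in the limb bud, summed to 52.5 to 67.0 RPM in null and 45.3 to 56.7 in wild-type libraries. Notochord markers summed to 72.5 to 86.0 RPM and 63.0 to 84.6. For 3 of these 8 genes every null library was above every wild-type library after centring (6.51% of all tested genes), and 0 were called. Lateral plate markers (70.3 to 163 null, 101 to 152 wild-type), blood markers (62.2 to 86.7 and 59.4 to 119) and endothelial markers (177 to 245 and 127 to 218) overlapped between the groups. Their part in the ligand values was not tested.

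**Figure D5:**
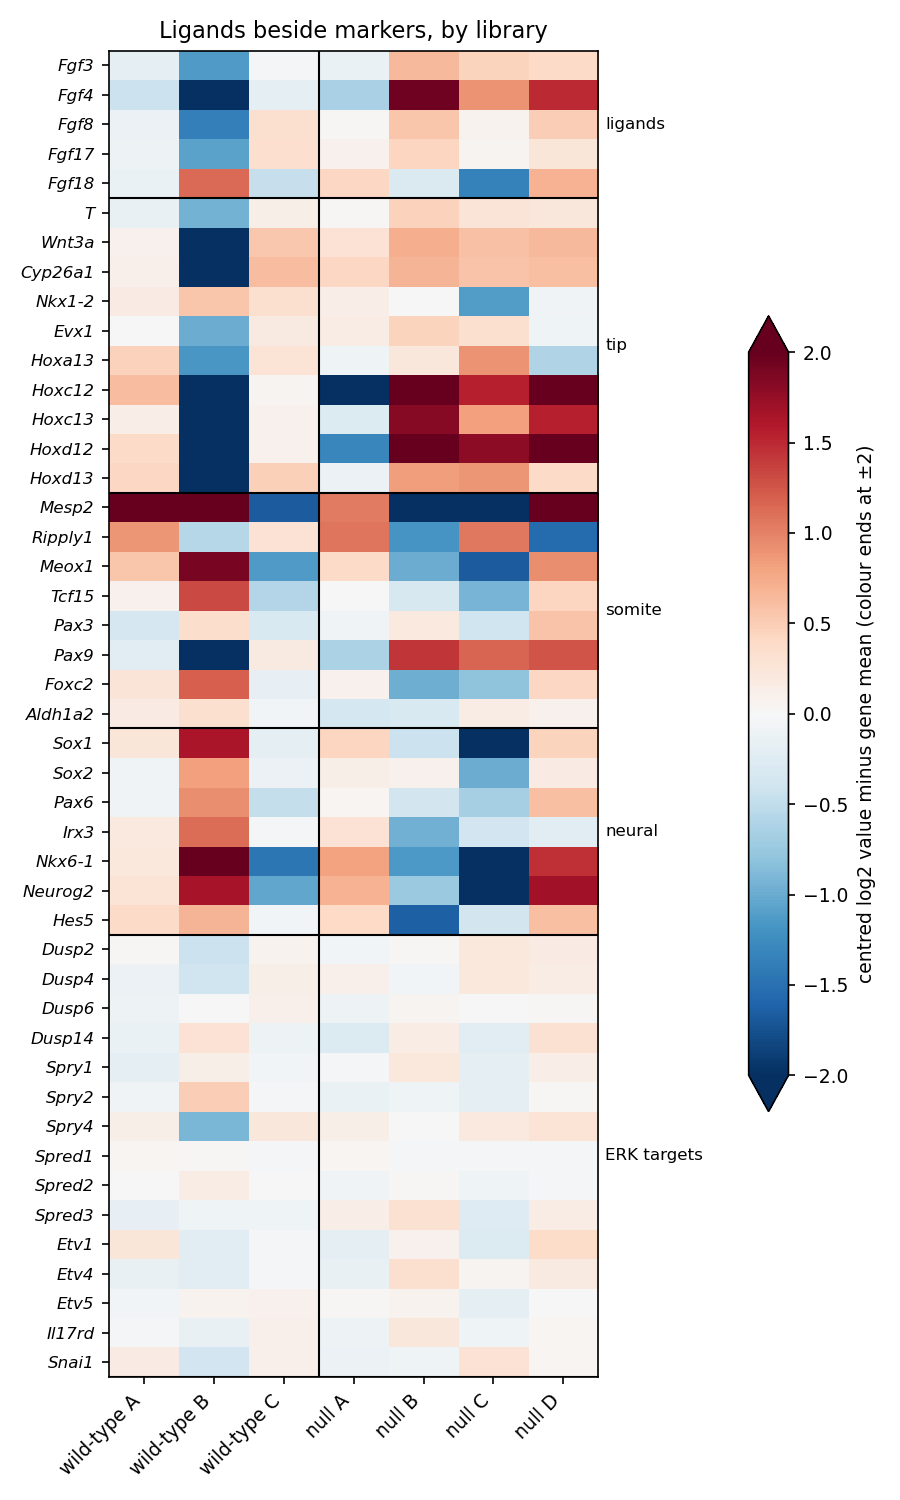
Centred log2 value minus the mean of the gene over the 7 libraries for the 5 ligands and for the tested genes of 4 lists (posterior tip, somite, neural tube and ERK targets), with colour ending at ±2. In wild-type B, Fgf3, Fgf4, Fgf8, Fgf17 and most tip genes are blue while Fgf18 and the neural genes are red, and the ERK targets are pale in all libraries except Spry4 in wild-type B.

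Genes whose centred values followed a ligand most closely over the 7 libraries were named by the highest Pearson r, as a description. These points share libraries, and a library that stands apart raises every r. For Fgf3 they included Nptx2, Chst7 and 4933404M02Rik (r from 0.993 to 0.998), and for Fgf4 Tnip1, 2610018G03Rik, Cntn2 and Ephb3 (0.991 to 0.994). Fgf3 and Fgf4 had an r of 0.988 with each other over 7 libraries and 0.967 over the 6 without wild-type B. For Fgf8 they were Vill, Fgf17, Susd5 and Lypd6b (0.988 to 0.990), and for Fgf17 Atp8a1, Fgf8, Mboat1 and Hpse (0.984 to 0.993). Fgf8 and Fgf17 were thus second in each other's order, with r of 0.990 over 7 libraries and 0.927 over 6. For Fgf18 they were Gm17296, Grip1, Brsk2 and Usp44 (0.987 to 0.993). With the other 4 ligands Fgf18 had an r of -0.62 to -0.49 over 7 libraries and of -0.26 to 0.23 over 6.

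Genes beside the ligands gave a further view of each locus. Fgf15, past Fgf4, had a log2 difference of 0.63 as deposited and 0.44 centred, with limma adjusted p = 0.28 and 0.40, and its wild-type B value was the highest of the wild-type libraries, unlike that of Fgf3 and Fgf4. Npm2, before Fgf17, had 38 to 106 reads in wild-type and 118 to 135 in null libraries and a difference of 0.90 and 0.71 (limma adjusted p = 0.30 and 0.35), and its groups did not overlap on either scale, as for 6.51% of tested genes centred. Without wild-type B the Npm2 difference was 0.46 and 0.31. Epb4.9, which starts 156 bp past the end of Fgf17 on the same strand, had 0.52 and 0.33, and 0.21 and 0.06 without wild-type B. Npm3 beside Fgf8 had 0.08 and -0.12, Npm1 beside Fgf18 0.07 and -0.12, and Fbxw4, 76485 bp past the end of Fgf8, 0.42 and 0.23. Gm10152, 73600 bp before Fgf3, had no read in any library, and Gm12114, 36908 bp past Fgf18, had at most 24 reads.

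Of 17 other genes of the FGF family, not all of which encode secreted ligands, 6 were tested, and 0 were called in either direction. Fgf6 and Fgf16 were at or under 3 reads in every library. The median log2 difference of the 6 was 0.21 as deposited and 0.02 centred, with 4 and 3 of the 6 positive. At an unadjusted limma p under 0.05, 2 were higher as deposited and 1 centred, where 13.9% and 7.29% of tested genes were. Fgf11, named after its values were seen, had 1.05 and 0.86 (limma adjusted p = 0.30 and 0.35). Like Fgf4, it passed the filter through null libraries alone, so its difference is a description only. Fgf2 had differences of 0.32 and 0.13, and Fgf9, which was highest in wild-type B at a centred log2 value of 4.11, had -0.12 and -0.32, and 0.13 and -0.02 without wild-type B.

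FGF receptors receive the ligands. Of 7 listed, 5 were tested, 0 were called, and the median difference was 0.12 as deposited and -0.07 centred. Fgfr1, the main receptor of the presomitic mesoderm, had 0.12 and -0.07, Fgfr2 0.06 and -0.13, and the decoy receptor Fgfrl1 0.14 and -0.05. Without wild-type B the centred differences of Fgfr1 and Fgfrl1 were 0.012 and 0.05. Fgfr3, named after its values were seen, had a difference of -0.36 as deposited, where the groups overlapped (limma adjusted p = 0.40). Its centred difference was -0.55, with every null library below every wild-type library as for 6.24% of tested genes (limma adjusted p = 0.24). After centring the same separation was seen for Fgfr2 (limma adjusted p = 0.35). The summed centred receptor level was 680 to 746 RPM in null and 752 to 844 in wild-type libraries, highest in wild-type B, where 4 of the 5 ligands were lowest. Most of that sum was Fgfr2 (centred log2 value 9.13 to 9.44), whose row spans 2960900 bp for 10328 bp of exon. Whether reads of other genes were counted in that row was not tested. Kl was at or under 3 reads in all libraries.

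Heparan sulphate proteoglycans and the sulphatases that trim them set how far a ligand travels. The list of 21 genes also holds enzymes that make heparan sulphate, and Flrt2 and Flrt3. Of the 21, 0 were called, with a median of 0.19 as deposited and -0.00 centred. The X-linked glypican Gpc3 had 0.40 and 0.21, and the sulphatases Sulf1 and Sulf2 had 0.15 and -0.04, and 0.20 and 0.01. Gpc4, also X-linked and named after its values were seen, had 0.70 and 0.50 (limma adjusted p = 0.107 and 0.145). After centring every null library was above every wild-type library for 2 of the 21, Gpc3 and Gpc4, and below for 1. The shares of all tested genes were 6.51% and 6.24%. Between receptor and ERK, 20 of 21 genes were in the table and 0 were called as deposited, with a median of 0.12 and -0.07. After centring 1 was called higher, the X-linked kinase Araf (0.48, limma adjusted p = 0.011). Ptpn11 had 0.10 and -0.10, and Plcg1 0.21 and 0.02.

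ERK targets and feedback inhibitors are read out as the response to FGF signal. Of 15, 0 were called, and the median was 0.24 as deposited and 0.05 centred. Dusp4, a phosphatase that removes ERK phosphate, had 0.43 and 0.24 (0.25 and 0.10 without wild-type B), Spred1 0.17 and -0.02 and Il17rd 0.24 and 0.05. Dusp6, whose transcript is widely used as a marker of FGF activity, had a centred log2 value of 5.42 to 5.62 over all 7 libraries, while Fgf8 ranged from 2.78 to 4.71. Spry4, named after its values were seen, was 3.79 in wild-type B and 4.70 to 4.98 in the other 6. The summed centred level of the 15 genes was lowest in wild-type B, at 428 RPM. It was 445 to 475 RPM in wild-type A and C and 446 to 488 in the null libraries.

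Among 17 Wnt, T-box and Cdx genes that act upstream or beside the ligands in the tailbud, 0 were called, and the median was 0.29 as deposited and 0.10 centred. T (brachyury), a T-box factor of the tailbud, had 0.76 and 0.57 (limma adjusted p = 0.20 and 0.35), Wnt5a 0.39 and 0.20 and Lef1 0.09 and -0.10. Without wild-type B, T had 0.41 and 0.26 and Wnt5a 0.22 and 0.07. Of 6 genes of retinoic acid control 0 were called. Cyp26a1, which breaks down retinoic acid in the tailbud, had 1.52 and 1.33 (limma adjusted p = 0.30 and 0.39) and 0.22 centred without wild-type B, where its centred log2 value was 1.81 against 4.89 to 5.48 in the other 6. Aldh1a2, which makes retinoic acid, had -0.05 and -0.24, and its receptor Rarg 0.26 and 0.06 (0.15 as deposited without wild-type B).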

How the data were processed

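RNA-seq of posterior tissue from E9.5 mouse embryos was analysed in 3 wild-type and 4 Smchd1-null libraries. The submitters' processing notes name TopHat2 2.0.12, bcl2fastq and edgeR, with mm10 as the build. How reads were counted, with which strand setting and annotation, is not given in the sources used here. In their files the authors deposited 1 table of log2 RPM, in which RPM means reads scaled by library size. Reads below 1000 came out whole within 0.01, with a gene of no read listed at 0.9 read. Columns name a genotype and no sample, so libraries were lettered. Same-group libraries differed by more than sampling noise (chi-square per degree of freedom 7.97 to 21.8).

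Genes with log2 above 0 in at least 3 libraries (13997) were compared between genotypes on the deposited values by limma (version 3.58.1, R 4.3.3; trended prior; Benjamini-Hochberg threshold 0.05) and again after centring on autosomal medians. Figures used matplotlib 3.10.9 in Python 3.11.15. Lengths and positions came from GENCODE M21, whose coordinates overlapped for 99.6% of 22710 matched names. Named genes were the 5 ligands, per list up to 5 called genes or else the 3 of highest mean, 4 per ligand by r, and the nearest neighbours; some genes the rule names are not reported here. The ligands and lists were chosen with earlier results of these data known. Scripts were tested on simulated data. Other filters, scalings, priors, weights, voom on the reads, a block and leaving out each library were the alternatives.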

Additional observations from a re-analysis of the deposited data

Results flagged for a closer look

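Of 23 groups of 4 null libraries tested for a library far from the rest, 3 were picked, and chance picks about 1 in 20. The summed centred level of presomitic mesoderm markers was 295 RPM in null library A, against 348 to 353 in the other null libraries. Null A was also the lowest null library for Fgf3, Fgf4 and Fgf8. The summed level of notochord markers was 72.5 RPM in null D, against 83.7 to 86.0 in the others. The summed level of limb ridge and surface ectoderm markers was 67.0 RPM in null B, against 52.5 to 54.9, and null B had the highest Fgf3, Fgf4, Fgf8 and Fgf17 of the 7 libraries. The part of these markers in the ligand values was not tested.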

How the results depend on the processing

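Under most alternatives 0 ligands were called, and in all centred fits 0 were. Array weights, whose estimation stopped before convergence and which called 62.8% of all genes higher, gave 4 ligands higher and 1 lower (differences 1.80 for Fgf3, 4.47 for Fgf4, 1.97 for Fgf8, 1.58 for Fgf17 and -1.04 for Fgf18). A block on the end numbers of the column names (4.99% called higher) gave 4 higher, with 0.88, 2.13, 0.81 and 0.62 and a reversed 0.023 for Fgf18, and 0 after centring; same-numbered libraries deviated with r of 0.36, 0.20, 0.41 and -0.05, so not every pair passed 0.1, and the numbers were not treated as a pairing; what they mean is not explained in the sources used here. Fits chosen after seeing the data gave 4 higher with the end number as a covariate (3.38% called higher; 0.87, 2.07, 0.77 and 0.59) and 2 higher without both libraries ending in 18 (1.4%; Fgf3 0.77, Fgf4 1.92, Fgf18 reversed at 0.16). Fgf18 was also reversed with the first number of the column names as a term, at 0.16 and centred at 0.027. The exact permutation test gave 0.67 for Fgf17 with its p of 0.0286.

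Leaving out each library in turn called 0 to 2 ligands higher. Differences ranged from 0.44 to 1.23 for Fgf3, 1.23 to 2.89 for Fgf4, 0.19 to 1.14 for Fgf8, 0.08 to 0.90 for Fgf17 and, for Fgf18, -0.52 to 0.31 as deposited and -0.63 to 0.16 centred. Fgf18 was reversed without null C (0.27, centred 0.096) and without wild-type B. Of the receptor, co-receptor, transduction and ERK target genes, 0 were called, 1 after centring (Araf), and 0 to 25 when leaving out libraries, 25 without wild-type A, where 30% of all tested genes were called. Counts of ligands called higher include Fgf4, which passed the filter through null libraries alone. Stricter filters left Fgf4 untested. Depth limits Fgf4 most, with 6 reads in wild-type B.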
